A study of Mus musculus with 3 samples.

Results

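Immature neutrophils of the mouse spleen, 719 of 47453 kept cells, were described in single-cell RNA sequencing of 3 libraries. They were chosen by measured transcripts. A barcode was kept with more than 200 and fewer than 3500 genes detected, under 15% mitochondrial unique molecular identifiers (UMIs, 1 per captured RNA molecule) and a leading hashtag at least 3 times the second. A member then held 10 or more UMIs of S100a8 plus S100a9, 10 or more summed UMIs of Ngp, Camp, Ltf and Lcn2, no UMI of Cd79a, and under 5 summed UMIs of Mpo, Elane, Prtn3 and Ctsg. The rule found 119 members in the C57BL/6 control library, 272 in the Ang II library, also C57BL/6, and 328 in that of B6.SLE123 mice. Library values are given in this order throughout. The 1033 neutrophils that met every limit except that on the 4-gene sum, 430, 307 and 296 by library, are called other neutrophils.

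All animals were 12 to 14 weeks old, and their splenocytes had been depleted of T cells with CD3 microbeads. Each condition was a pool of 3 mice, and each library held 2 conditions. The control library combined male C57BL/6 mice with sham pumps and female C57BL/6 mice. In the Ang II library, C57BL/6 mice, male per the series' design, had received angiotensin II (Ang II, a pressor hormone that causes hypertension) at 490 µg/kg/min by minipump for 2 weeks, and part of them also 2-HOBA (2-hydroxybenzylamine, a scavenger of isolevuglandins). The B6.SLE123 library held mice of this lupus-prone strain, female per the study's methods, untreated or given 2-HOBA for 6 weeks from 7 weeks of age. B6.SLE123 carries lupus susceptibility intervals of the NZM2410 strain on a C57BL/6 background. The labels tie none of the 6 hashtags C0301 to C0306 to a condition or a mouse, so hashtag populations are reported as such and 2-HOBA was not compared. Strain, treatment and library cannot be told apart, the libraries also differ in sex, and with 1 library a group no difference has a replicate check. Intervals are exact 95% intervals for counting error alone and carry no information on variation between mice.

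Neutrophils arise in the bone marrow, and in mice also in the spleen, from promyelocytes that make azurophil granule proteins such as myeloperoxidase. Myelocytes and metamyelocytes then make specific granule proteins, among them lactoferrin (Ltf), cathelicidin (Camp), neutrophilic granule protein (Ngp) and the siderophore-binding lipocalin 2 (Lcn2). Gelatinase granule proteins such as Mmp9 follow. Division ceases during this sequence, and the circulating cell gains Cxcr2 and other receptors while its granule transcripts are lost. The transcription factor C/EBPε (Cebpe) is required for specific granules.

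The promoters of the 4 granule genes that define the cells are shown because their summed transcripts chose the members. They are the 250 bases before the RefSeq start on GRCm38.p6, 5′ to 3′ on the gene's strand. Capitals mark TTNNGCAA, a form of the motif bound by C/EBP proteins, on either strand. A match is a description of the letters and not a binding site.
Ngp (chr9:110419558-110419807, + strand): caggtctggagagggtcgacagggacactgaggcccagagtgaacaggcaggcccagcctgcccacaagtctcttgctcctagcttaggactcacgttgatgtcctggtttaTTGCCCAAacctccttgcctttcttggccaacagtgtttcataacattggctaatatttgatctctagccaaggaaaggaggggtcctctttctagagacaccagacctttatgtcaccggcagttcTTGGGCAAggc
Camp (chr9:109849457-109849706, - strand): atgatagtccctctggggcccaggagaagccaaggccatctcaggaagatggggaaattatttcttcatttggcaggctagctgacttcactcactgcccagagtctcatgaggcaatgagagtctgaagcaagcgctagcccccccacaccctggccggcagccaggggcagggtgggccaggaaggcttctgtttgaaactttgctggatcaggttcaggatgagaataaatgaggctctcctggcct
Ltf (chr9:111019042-111019291, + strand): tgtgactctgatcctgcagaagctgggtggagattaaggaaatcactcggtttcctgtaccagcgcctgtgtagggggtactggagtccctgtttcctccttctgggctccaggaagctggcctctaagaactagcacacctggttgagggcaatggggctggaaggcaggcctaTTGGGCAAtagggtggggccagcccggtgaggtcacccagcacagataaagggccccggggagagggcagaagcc
Lcn2 (chr2:32387740-32387989, - strand): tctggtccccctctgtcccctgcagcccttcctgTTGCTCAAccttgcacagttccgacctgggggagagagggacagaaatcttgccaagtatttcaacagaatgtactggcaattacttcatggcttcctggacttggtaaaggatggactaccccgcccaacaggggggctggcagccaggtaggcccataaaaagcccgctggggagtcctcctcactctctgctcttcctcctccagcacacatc
The motif was present in the Ngp, Ltf and Lcn2 windows and in 9.56% of the 32851 promoter windows of the same length. The letters GAGGAA, a core of the PU.1 motif, were in the Ltf and Lcn2 windows and in 23.3% of all windows. Camp, Ngp and Ltf lie within 1195 kb of chromosome 9 in the annotation (GENCODE vM21), and Lcn2 is on chromosome 2.

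The libraries held 16062 to 20691 barcodes, of which 13982 to 17514 were kept at a median of 1792 to 2771 UMIs. Immature neutrophils held a median of 4645, 7337 and 4096.5 UMIs and 1047, 1475.5 and 1034 genes, against 1074.5, 1613 and 826.5 UMIs in other neutrophils. The deepest member held 25280 UMIs. Barcode sequences recurred between libraries in 415 to 496 cases, and none of them was a member in both. Genes of the rule supplied 49.5%, 46.2% and 44.2% of the members' UMIs, so that the level of any other gene in counts per 1000000 gene UMIs (CPM) was lowered by them.

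Members made up 0.746% (0.618% to 0.892%) of kept cells in the control library, 1.95% (1.72% to 2.19%) with Ang II and 1.87% (1.68% to 2.08%) with B6.SLE123. As a share of neutrophils they made up 21.7% (18.3% to 25.4%), 47.0% (42.9% to 51.1%) and 52.6% (48.6% to 56.5%). The share of kept cells was thus higher than in the control library by a log2 ratio of 1.38 (1.07 to 1.71) with Ang II and by 1.33 (1.02 to 1.64) with B6.SLE123. The share of neutrophils was higher by 1.12 (0.80 to 1.44) and 1.28 (0.97 to 1.59). With every kept cell thinned to 1000 UMIs and shallower cells left out, these were 0.53 (0.21 to 0.85) and 1.31 (1.01 to 1.62). The Ang II ratio was lower than before and the B6.SLE123 ratio about the same. The cut left out 2, 1 and 11 members but 176, 26 and 205 other neutrophils. The thinned shares thus cover unlike parts of the neutrophils of each library and cannot show that a ratio is free of depth.

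Within libraries the hashtag populations differed more than the libraries did. In the control library they held 0.388%, 1.68%, 0.315%, 0.128%, 1.34% and 0.127% immature neutrophils from C0301 to C0306. In the Ang II library the shares were 2.58%, 6.13%, 2.01%, 1.17%, 0.256% and 0.705%. In the B6.SLE123 library they were 1.46%, 2.10%, 6.14%, 0.140%, 0.617% and 0.151%. All 3 ranges overlapped. A single population carried 46.2% of the control members (C0302), 42.3% of the Ang II members (C0302) and 61.9% of the B6.SLE123 members (C0303). Without C0303 the B6.SLE123 log2 ratio was 0.24 (-0.14 to 0.61) for kept cells and 0.77 (0.39 to 1.14) for neutrophils. Without C0302 of the Ang II library its ratio for kept cells was 0.80 (0.45 to 1.15), and without C0302 of the control library the ratios for kept cells were 1.95 and 1.89. Xist, transcribed from the inactive X chromosome, was detected in 13, 0 and 97 members, and Y-linked genes in 10, 93 and 0. Within the control library Xist was detected in 1, 11 and 1 members of C0304, C0305 and C0306 and Y-linked genes in 8 and 2 members of C0302 and C0303, with neither in C0301.

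**Figure D1:**
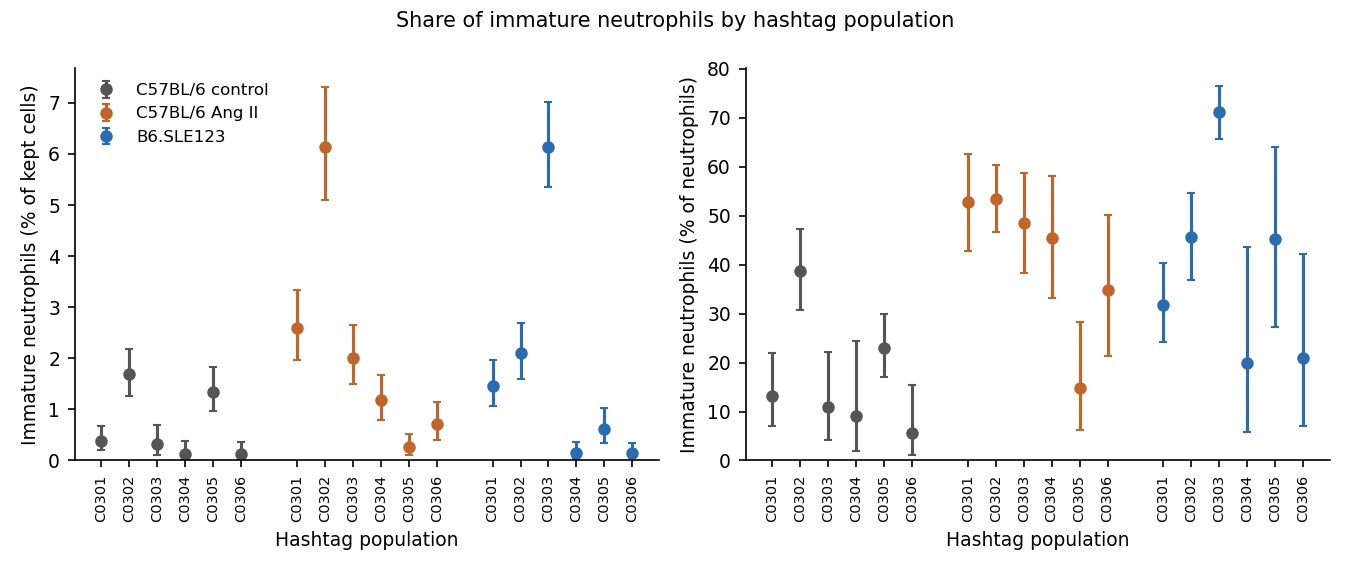
Immature neutrophils as a percent of kept cells (left) and of neutrophils (right) in each of the 6 hashtag populations of the 3 libraries, with exact 95% binomial intervals. C0302 of the Ang II library and C0303 of the B6.SLE123 library reach 6.13% and 6.14% of kept cells, and the lowest populations of every library lie under 0.26%.

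The 4-gene sum separated most members widely from the limit, with a second set close to it. The sum had a median of 554, 910.5 and 503 UMIs and reached 2413, 4709 and 2689. Just inside the limit lay 5, 4 and 2 cells with a sum of exactly 10, and just outside lay 5, 8 and 3 cells with 9. Among barcodes that met every other limit of the rule, none held 8 to 11 UMIs of S100a8 plus S100a9, and the lowest member held 122, 30 and 14. Members with a sum of 100 or more, 96, 211 and 280 cells, took about the same part of it from Lcn2, 14.6% to 19.9% over the bands and libraries. In the 19, 50 and 30 members with 10 to 49 UMIs, Lcn2 supplied 91.1%, 88.5% and 61.2%. Ngp, Camp and Ltf together stayed under 10 UMIs in 18, 46 and 18 members, or 15.1%, 16.9% and 5.49%, which are called Lcn2-led here.

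**Figure D2:**
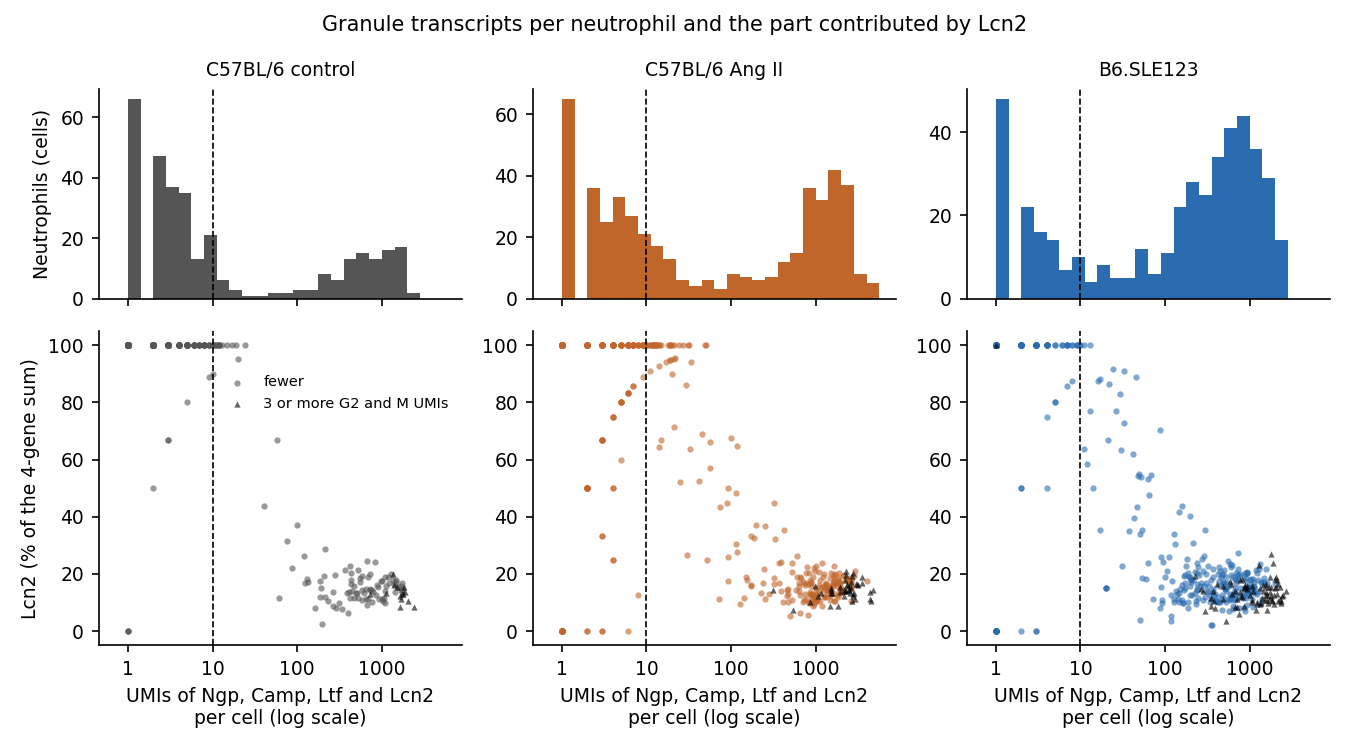
Neutrophils by the summed UMIs of Ngp, Camp, Ltf and Lcn2 (x axis, log scale, cells with at least 1), as the number of cells (top) and as the percent of the sum that was Lcn2 (bottom) in each library. The dashed line is the limit of 10 UMIs, triangles are cells with 3 or more UMIs of G2 and M genes, and cells between 10 and 49 UMIs lie mostly near 100% Lcn2 in the control and Ang II libraries.

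Levels of genes that the rule did not use followed the 4-gene sum. Cybb, the catalytic subunit of the phagocyte NADPH oxidase, was at 99.2, 106 and 235 CPM in members with 10 to 49 UMIs and at 1353, 1275 and 1212 CPM in those with 500 or more. Chil3, a secreted chitinase-like protein, was at 132, 7.57 and 19.6 CPM in the first band and 6129.9, 6513 and 7263 CPM in the second. Both were thus lowest beside the limit. Cxcr2, the chemokine receptor of circulating neutrophils, was at 1289, 1453 and 881 CPM with 10 to 49 UMIs and 111, 108 and 122 CPM with 500 or more. Csf3r, the G-CSF receptor, was at 1984, 1726 and 919.9 CPM in the first and 68.1, 70.8 and 58.4 CPM in the second. These receptors had the opposite order to the granule genes in every library. Mmp8, the neutrophil collagenase, was at 1554, 893 and 1801 CPM with 10 to 49 UMIs, 1881, 2999 and 1473 CPM with 100 or more but under 500 and 477, 608 and 285 CPM with 500 or more. The resistin-like Retnlg was at 33096, 25192 and 61359 CPM with 10 to 49 UMIs and 2602, 2211 and 1797 CPM with 500 or more. Both were lowest in the cells with the most granule transcripts. Depth differed between these bands as well, with a median of 1484, 2446 and 1596.5 UMIs at 10 to 49 and 6508, 9888 and 6704.5 at 500 or more.

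**Figure D3:**
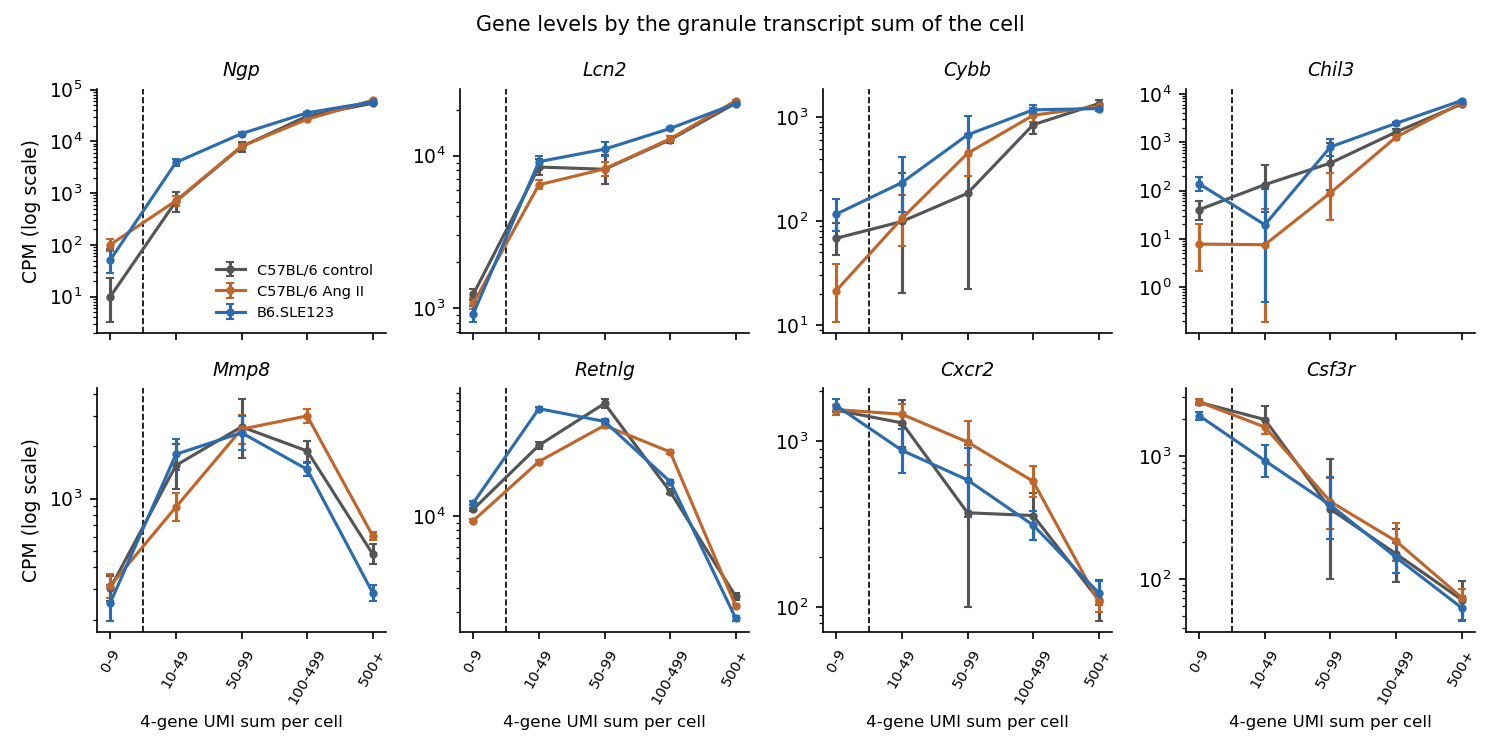
Levels of 8 genes (CPM, log scale) in neutrophils grouped by the 4-gene UMI sum of the cell, in the 3 libraries, with exact 95% Poisson intervals of the summed counts. The dashed line is the limit of the rule. Right of it, Cybb and Chil3 climb with the sum and Cxcr2 and Csf3r descend, and Mmp8 and Retnlg are lowest in the last band.

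For the label, detection of 8 markers that the rule did not use was set beside that in B cells. Such a comparison bears on neutrophil identity and cannot tell stages of neutrophils apart. Cd177, a surface glycoprotein of neutrophils, was detected in 81.5, 86.0 and 89.9% of members, Chil3 in 83.2, 76.8 and 83.8% and Ly6g, the surface marker of mouse neutrophils, in 81.5, 84.2 and 85.1%. Cebpe was detected in 60.5, 68.8 and 64.6%, Mmp8 in 59.7, 58.8 and 57% and the whey acidic protein Wfdc21 in 98.3, 97.8 and 99.4%. The integrin Itgb2l was detected in 52.9, 69.5 and 49.1% and the ficolin Fcnb in 27.7, 30.9 and 32.0%. In B cells, which should lack these transcripts, at a median of 1850, 2848 and 2124 UMIs, Cd177 was detected in 0.173, 0.475 and 0.513%, Chil3 in 0.377, 1.25 and 0.926%, Ly6g in 0.134, 0.412 and 0.367% and Cebpe in 0.118, 0.278 and 0.329%. The B cell shares were 0.228, 0.349 and 0.360% for Mmp8, 2.08, 2.65 and 1.09% for Wfdc21, 0.0550, 0.197 and 0.176% for Itgb2l and 0.0314, 0.125 and 0.191% for Fcnb. The Lcn2-led members went against the label. Il1b, which encodes interleukin-1β, stood at 3999.7, 5010.1 and 659.5 CPM in them and at 3936, 5235 and 3725 CPM in other neutrophils, against 4.69, 19.0 and 20.9 CPM in members with a sum of 100 or more and few G2 and M transcripts, called granule-rich here. Csf3r stood at 2205, 1905 and 1187 CPM in Lcn2-led and 106, 104 and 106 CPM in granule-rich members, and Cybb at 74.8, 42.5 and 165 against 1278, 1352 and 1307 CPM.

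Members with cell cycle transcripts formed another set, called G2/M-positive here. With 3 or more UMIs of 10 G2 and M genes, a limit set with values known, there were 14 of 119 (11.8%, 6.58% to 19.0%), 45 of 272 (16.5%, 12.3% to 21.5%) and 83 of 328 members (25.3%, 20.7% to 30.4%). Among other neutrophils there were 0 of 430, 0 of 307 and 3 of 296, where a count of 0 allows exact upper limits of 0.854% and 1.19% (0.698% and 0.977% as 3 counts of the total). After each cell was thinned to 1000 UMIs, which left out 2, 1 and 11 members and 176, 26 and 205 other neutrophils, a UMI of these genes remained in 12.0%, 15.1% and 25.6% of members, 1.18%, 1.07% and 4.40% of other neutrophils and 2.5%, 1.6% and 7.5% of B cells. The B6.SLE123 library was thus highest in all 3 classes. Among other neutrophils this rested on 3 of 254, 3 of 281 and 4 of 91 cells. Their intervals overlapped, at 0.244% to 3.41%, 0.221% to 3.09% and 1.21% to 10.9%. By hashtag population with 10 or more members the unthinned share was 8.33% to 17.5% (control), 12.5% to 17.9% (Ang II) and 14.3% to 28.6% (B6.SLE123), so the populations overlapped. These cells were deeper, with a median of 10788, 15553 and 8184 UMIs against 4955, 7645.5 and 4026 in granule-rich members.

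The G2/M-positive members carried the specific granule transcripts and were low in those of later stages. Ngp and Ltf belong to the sum that chose every member, so their presence was set by the rule and their levels are descriptions. Ngp was at 53449.8, 62906 and 57116 CPM in them and 48461, 57708 and 49255 CPM in granule-rich members, and Ltf at 10809, 15417 and 10494 against 11813, 14475 and 11762 CPM. Chil3 was higher in the G2/M-positive members, at 8505, 9229.8 and 8938 against 4076, 4538 and 3979 CPM. Fcnb was also higher, at 546, 525 and 384 against 103, 141 and 130.2 CPM, as was Ms4a3, a membrane protein of granulocyte progenitors, at 128, 96.7 and 139 against 2.35, 21.2 and 29.1 CPM. Mmp8, Mmp9 and Retnlg were lower in these cells. Mmp8 was at 57.8, 5.77 and 25.3 CPM in G2/M-positive and 999, 1186 and 968 CPM in granule-rich members. Mmp9, the gelatinase of gelatinase granules, was at 167, 77.9 and 104 against 1201, 1213 and 1189 CPM. Retnlg was at 257, 115 and 135 against 6771, 6414 and 9548 CPM. Ly6g was lower in G2/M-positive members as well, at 668, 339 and 485 against 1475, 1212 and 1214 CPM. S100a6, a calcium-binding protein, was at 822, 646 and 759 against 3349, 3604 and 3798 CPM and the interferon-induced Ifi27l2a at 19.3, 8.66 and 194 against 119.6, 73.7 and 722 CPM.

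Genes outside the 10 that were used to find G2/M-positive members followed them. The histone gene Hist1h2ap was at 1714, 3298 and 1005 CPM in G2/M-positive and 70.4, 175 and 38.4 CPM in granule-rich members, and the tubulin gene Tuba1b at 609.8, 569.9 and 793 against 11.7, 10.2 and 26.7 CPM. Pclaf, which encodes a PCNA-binding protein, was at 526, 349 and 423 against 0, 3.65 and 2.33 CPM. Prothymosin α (Ptma) was at 1881, 1677 and 1856 against 134, 131 and 231 CPM. Cebpe was at 526, 580.0 and 708 CPM in G2/M-positive, 368, 388 and 394 CPM in granule-rich and 0, 59.5 and 33.0 CPM in Lcn2-led members. Cybb was nearly level in the first 2 sets, at 1194, 1071 and 1081 against 1278, 1352 and 1307 CPM.

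**Figure D4:**
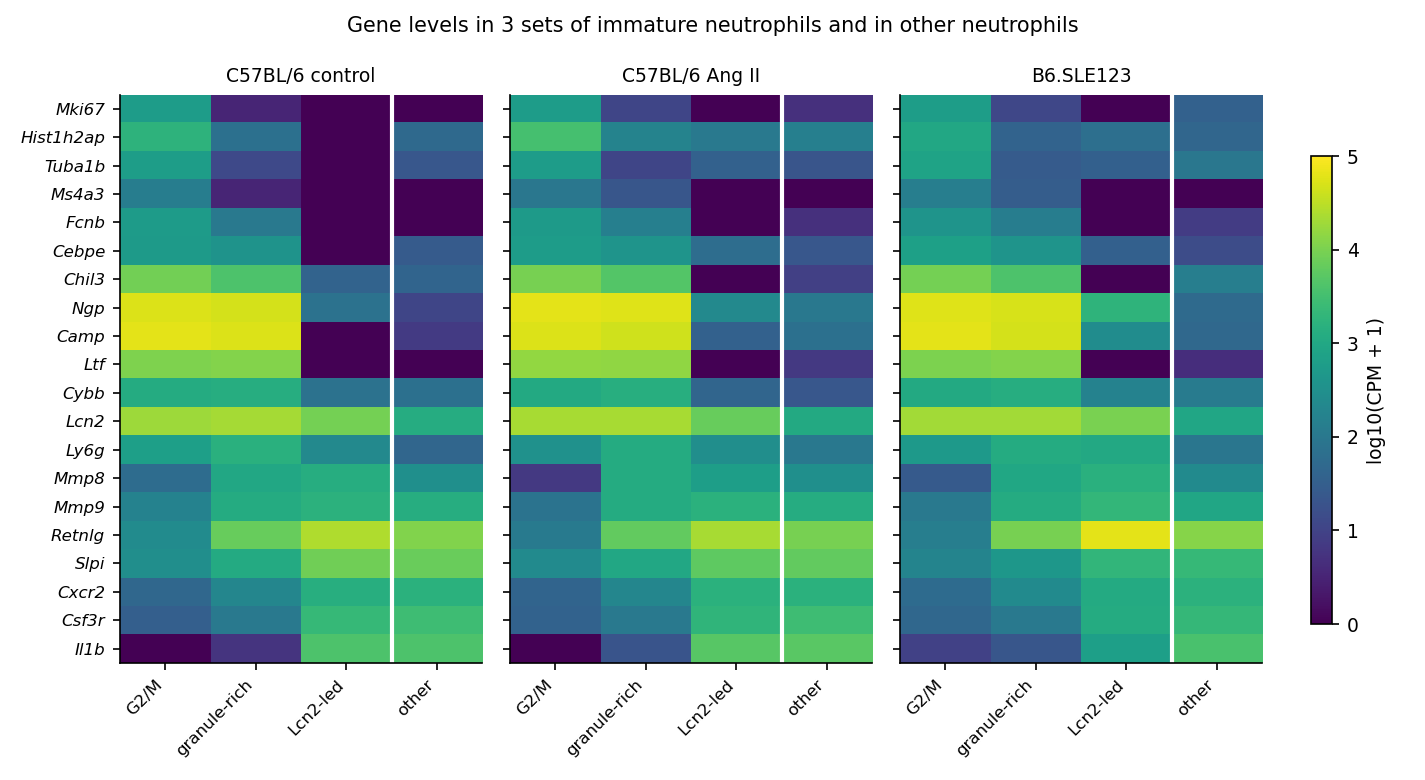
Levels, as log10(CPM + 1), of 20 genes in members with 3 or more G2 and M UMIs, in granule-rich members, in Lcn2-led members and, right of the white line, in other neutrophils of each library. Ngp, Camp and Ltf are high in the first 2 columns, Mmp8, Mmp9 and Retnlg are low in the first, and in the control and Ang II libraries the Lcn2-led column is close to other neutrophils for Cxcr2, Csf3r and Il1b, while in the B6.SLE123 library it lies below them for Csf3r and Il1b.

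Members were next set beside other neutrophils, the contrast that the rule itself used, so the values are descriptions. Of 2162 genes with 50 or more UMIs in both classes together in each library, 134 (6.2%) were at least 2-fold higher in members in all 3 libraries and 630 (29.1%) at least 2-fold lower. The median log2 ratio over these genes was -0.74, -0.68 and -0.61, and leaving the rule's genes out of the total moved these medians up by 0.74, 0.68 and 0.65. With that total 294 of the 630 lower genes stayed 2-fold lower, and 269 genes, with the 134 among them, were 2-fold higher. Counted as UMIs per cell, 143 of the 630 were lower in members in every library. Genes low in both classes did not enter, so a list's count covers the genes that had enough UMIs in at least 1 class.

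Specific and gelatinase granule genes were mostly higher in members, with 7 of 12 past 2-fold and 1 lower. Chil3 was at 4928, 5634 and 5926 CPM in members and 40.2, 7.80 and 137 CPM in other neutrophils. Cd177 was at 1081, 1397 and 1237 against 28.2, 35.1 and 30.9 CPM. Orm1, the acute phase protein orosomucoid, was at 199, 251 and 323 CPM in members and had no UMI in other neutrophils, so it was at least 33.0-, 42.9- and 31.4-fold higher against a floor of 3 counts. Fcnb was at 207, 249 and 233 against 0, 3.9 and 6.87 CPM and Olfm4, the specific granule protein olfactomedin 4, at 193, 167 and 153 against 10.1, 19.5 and 10.3 CPM. Hp (haptoglobin) was under 2-fold on either total, at 1658, 2015 and 1997 against 1907, 1998 and 1950.2 CPM. Slpi, an inhibitor of neutrophil elastase, was the member of this list that went the other way, at 1333, 1103 and 415 against 7272, 6383 and 2266 CPM.

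The other leading genes were of several kinds. Lbp, which encodes lipopolysaccharide-binding protein, was at 86.6, 89.8 and 109.9 CPM in members with no UMI in other neutrophils, at least 14.4-, 15.4- and 10.7-fold higher. Inhba, the activin βA chain, was at 103, 90.2 and 92.4 CPM and likewise had no UMI in other neutrophils, at least 17.0-, 15.4- and 8.97-fold higher. Itgb2l was at 207, 245 and 162 against 0, 1.95 and 3.43 CPM. The ADP-dependent glucokinase Adpgk was at 732, 970.4 and 800.4 against 12.1, 19.5 and 27.5 CPM, the glutathione transferase Mgst2 at 194, 194 and 204 against 8.04, 5.85 and 3.43 CPM, and the protease inhibitor Serpinb1a at 696, 785 and 911 against 22.1, 15.6 and 41.2 CPM. Of the azurophil and promyelocyte list, lysozyme (Lyz2) was at 12463, 12312 and 10665 against 2267, 1974 and 1875 CPM. Mki67, the Ki-67 antigen, was at 149, 189 and 262 against 0, 3.9 and 34.3 CPM.

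Among 5 regulators of granulopoiesis tested, Cebpe was higher in members, at 385, 422 and 514 against 26.1, 21.4 and 13.7 CPM, and 4 were lower in CPM. Cebpb, a C/EBP factor of emergency granulopoiesis, was at 234, 364 and 414 against 1927, 2789 and 2609 CPM, and the factor Klf2 at 194, 219 and 327 against 1187, 1132 and 1006 CPM. Spi1, which encodes PU.1, was at 411, 421 and 509.8 against 971, 1017 and 1133 CPM, but on the scale of UMIs per cell its order was the reverse, at 2.15, 3.47 and 2.57 in members and 1.12, 1.70 and 1.11 in other neutrophils. Cebpd was reversed in the same way, at 1.84, 3.30 and 2.19 against 0.958, 1.59 and 0.875 UMIs per cell. Gfi1, a repressor needed for granulopoiesis, was at 3.21, 7.14 and 9.06 CPM in members and had no UMI in other neutrophils.

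Late neutrophil genes were lower in CPM in members, 10 of 13 past 2-fold and none past 2-fold higher. Il1b was at 175, 307 and 29.0 against 3936, 5235 and 3725 CPM, Csf3r at 183, 185 and 111 against 2741, 2762 and 2132 CPM, and Cxcr2 at 217, 237 and 193 against 1537, 1549 and 1638 CPM. Per cell Cxcr2 differed less, at 1.13, 1.95 and 0.976 against 1.78, 2.59 and 1.61 UMIs. Srgn, the proteoglycan core protein serglycin, was at 380.3, 389 and 256 against 5225, 5383 and 5545 CPM, and Ccl6, a chemokine, at 284, 282 and 217 against 4925, 4471 and 3973 CPM. Retnlg was the least separated, at 7463, 6366 and 7885 against 11292, 9320.0 and 12563 CPM. This difference was about the size of the shift of 0.74, 0.68 and 0.65 that the rule's genes brought. Counted as UMIs per cell, Retnlg was higher in members of every library. The 10 lowest genes overall included Clec4n (dectin-2, a fungal receptor) at 3.21, 0 and 1.21 against 96.5, 146 and 168 CPM, Csf1 (macrophage colony-stimulating factor) at 1.60, 10.7 and 6.64 against 195, 283 and 206 CPM, Fgl2 at 38.5, 27.2 and 6.04 against 837, 711 and 749 CPM and Wfdc17 at 117, 180.0 and 117 against 2104, 3639 and 5051 CPM. Of 9 interferon response genes tested 8 were lower in members, with Isg15, a ubiquitin-like modifier, at 56.2, 60.3 and 161 against 416, 351 and 694 CPM.

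With so few genes, lower calls among receptors and oxidase subunits, 3 of 12 and 1 of 6, could not be told from the share among all genes (29.1%). Of 12 adhesion and chemotactic receptors 4 were higher in members (Ly6g, Itgb2l, Ltb4r1 and Ceacam1) and 3 lower, among them Selplg and Cxcr4. Ly6g was at 1202, 877 and 883 against 44.2, 99.4 and 92.7 CPM. Ltb4r1, the leukotriene B4 receptor, was at 349.8, 385 and 393 against 54.3, 91.6 and 65.2 CPM. Cxcr4, the receptor that retains neutrophils in the marrow, was at 114, 77.7 and 85.8 against 446, 515 and 282 CPM. In the NADPH oxidase, Cybb was higher at 1181, 1174 and 1164 against 68.4, 21.4 and 117 CPM and its partner subunit Cyba was at 2644, 2271 and 2584 against 1949, 1505 and 1947 CPM. The log2 ratio of Cyba was 0.44, 0.59 and 0.41, and 1.18, 1.27 and 1.06 without the rule's genes in the total. Of 5 genes of the suppressive myeloid list tested, Anxa1 was higher, at 4464, 4666 and 4861 against 895, 1234 and 869 CPM, and 4 were lower. Arg1, the arginase of suppressive myeloid cells, had no UMI in members of any library.

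Markers of other cells were sparse in members but concentrated in single barcodes. Platelet markers had no UMI (3 of 3 at 0 in each library), and eosinophil and basophil markers summed to 3, 8 and 0 UMIs. The 9 B cell markers summed to 1207, 212 and 347 CPM, with 1, 0 and 0 of them at 0, and 1 control cell supplied 63.7% of the control UMIs. T and NK cell markers summed to 36.9, 110.3 and 50.7 CPM, with 4, 1 and 2 of 7 at 0 and 42.9% of the Ang II UMIs in 1 cell. Erythroid markers summed to 0, 3.57 and 192 CPM, with 7, 3 and 0 of 7 at 0 and 90.6% of the B6.SLE123 UMIs in 1 cell. The monocyte list, with 2, 1 and 0 of 7 at 0, summed to 1319, 1237 and 1566 CPM, nearly all of it Ly6c2 at 1215, 1188 and 1430.4 CPM, while Csf1r, the receptor that defines monocytes, was at 24.1, 16.5 and 29.0 CPM.

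Ang II and control members were then compared gene by gene. Of 3915 genes with 50 or more UMIs over both libraries, 104 (2.66%) were 2-fold higher in Ang II members with an interval off 0 and 18 (0.46%) were 2-fold lower. With TMM scaling these were 77 and 28, so the share of higher calls went from 85.2% to 73.3%, and without the rule's, immunoglobulin, haemoglobin and mitochondrial genes in the total it was 74.3%. The median log2 ratio of all genes was 0.11, and 0.01 with TMM scaling, so ratios are read relative to it. In 285 genes (7.28%) the hashtag populations with 10 or more members, 3 of the control and 5 of the Ang II library, did not overlap. Without C0302 of the Ang II library 74 of 2951 genes tested were past 2-fold in either direction. Of these, 45 were among the 122 called with all members.

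Jun, an immediate early transcription factor, was at 264 CPM in the Ang II library and 99.5 CPM in the control library, a log2 ratio of 1.41 (1.03 to 1.81). Its populations held 151, 120.3 and 69.9 CPM in the control library and 191, 313, 237, 247 and 227 CPM in the Ang II library, without overlap. The B6.SLE123 populations, at 269, 497, 347 and 307 CPM, also lay above those of the control. Among G2/M-negative members with 10 or more UMIs of Ngp, Camp and Ltf, 87 control and 181 Ang II cells, the ratio of Jun was 1.62 (1.15 to 2.12). Hist1h2ap was at 1138 CPM in the Ang II library and 478 CPM in the control library, a ratio of 1.25 (1.08 to 1.43), with populations of 37.7, 591 and 502 against 1124, 1298, 707, 1227 and 1988 CPM. The heat shock cognate Hspa8 was at 469.8 CPM in the Ang II library and 242 CPM in the control library, a ratio of 0.96 (0.71 to 1.21) that stayed under 2-fold. Wbp1, a WW domain-binding protein, was at 22.3 CPM in the Ang II library and 1.60 CPM in the control library, the latter from 1 UMI.

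Several leading ratios came from few cells. The cytotoxic genes Ccl5, Gzma and Nkg7 had log2 ratios of 4.04 (2.66 to 5.93), 4.81 (2.30 to 10.13) and 2.10 (0.81 to 3.76), and 1 cell held 52.5%, 65.3% and 36.4% of their Ang II UMIs. The MHC class II genes H2-Eb1, H2-Aa, H2-Ab1 and Cd74 had ratios of -4.83 (-5.54 to -4.18), -4.08 (-4.61 to -3.57), -4.09 (-4.87 to -3.39) and -2.81 (-3.02 to -2.59), and 1 control cell held 82.8%, 78.1%, 81.1% and 62.1% of the control UMIs. The class I genes H2-K1 and B2m were spread over more cells. H2-K1 was at 248 CPM in the Ang II library and 521 CPM in the control library, a ratio of -1.07 (-1.27 to -0.87), and its populations overlapped at 169.6 to 856 and 174 to 564 CPM. B2m was at 619.8 CPM in the Ang II library and 1091 CPM in the control library, a ratio of -0.82 (-0.95 to -0.68). Ifi30, a lysosomal thiol reductase, had a ratio of -1.58 (-2.40 to -0.76), with 44.0% of its 25 control UMIs in 1 cell and populations that did not overlap, 34.9 to 51.6 CPM for the control and 0 to 22.7 CPM for Ang II.

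Gene lists of the lineage were close to the median of all genes in this contrast. No gene of the 12 specific and gelatinase granule genes, 13 late neutrophil genes, 12 receptors, 6 oxidase genes, 10 G2 and M genes or 9 interferon genes tested was past 2-fold, and their median log2 ratios were 0.09, 0.03, 0.19, 0.11, 0.24 and 0.15. With TMM scaling the first 2 medians were -0.0052 and -0.06. Interferon genes past 2-fold numbered 2 of 8, both higher, without C0302 of the Ang II library and 1 of 9, lower, without C0302 of the control library. In the S phase list 2 of 7 genes were past 2-fold, with a median of 0.74. Pcna, the sliding clamp of replication, was at 37.1 CPM in the Ang II library and 16 CPM in the control library, a ratio of 1.21 (0.26 to 2.32), and Dut, the dUTPase, had a ratio of 1.24 (0.18 to 2.51). Both ratios were below 0 once G2/M-positive members were left out, at -0.31 and -2.31 with intervals across 0.

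B6.SLE123 and control members differed in more genes. Of 3473 genes tested 199 (5.73%) were 2-fold higher in B6.SLE123 members and 24 (0.691%) were 2-fold lower. TMM scaling gave 117 and 42, so the share of higher calls went from 89.2% to 73.6%, and with those genes out of the total it was 78.6%. The median log2 ratio of all genes was 0.16, and -0.01 with TMM scaling. The 4 populations of the B6.SLE123 library and the 3 of the control library did not overlap in 389 genes (11.2%). Without G2/M-positive cells 99 of 2222 genes tested were past 2-fold, and 61 of them were among the 223 called with all members. Without C0303 it was 88 of 2033 genes tested, and 51 of them were among the 223. Both contrasts share the control library.

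A first group of genes separated all populations. Ftl1-ps1, a ferritin light chain copy on chromosome 13 whose reads may be shared with Ftl1, was at 587 CPM in the B6.SLE123 library and 30.5 CPM in the control library, a log2 ratio of 4.27 (3.62 to 5.01). Its populations held 406, 499.9, 646 and 679 CPM against 0, 30.9 and 39.3 CPM for the control and 44.2, 44.3, 52.7, 45.3 and 79.5 CPM for Ang II. Cstdc6, a stefin gene on chromosome 16, was at 59.2 CPM with no UMI in control members, at least 12.3-fold higher, and it was detected in all 4 B6.SLE123 populations at 15.9 to 75.6 CPM. Its neighbour Cstdc5 had a ratio of 3.85 (2.85 to 5.07) with populations that overlapped, and such stefin copies may share reads. The receptor gene Mrgpra2a on chromosome 7 was at 87.6 CPM in the B6.SLE123 library and 11.2 CPM in the control library, a ratio of 2.96 (1.88 to 4.30). The noncoding Gm42031 was at 41.1 CPM with no UMI in control members, at least 8.53-fold higher. Mcee, a mitochondrial epimerase gene on chromosome 7, was lower, at 16.9 CPM in the B6.SLE123 library and 78.6 CPM in the control library, a ratio of -2.22 (-2.94 to -1.52). Gm36161 and Lars2 had ratios of -1.95 (-2.56 to -1.34) and -1.19 (-1.30 to -1.09). In all of these except Cstdc5 no B6.SLE123 population lay among those of the control.

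Slpi was the granule list gene past 2-fold. It was at 415 CPM in the B6.SLE123 library and 1333 CPM in the control library, a ratio of -1.68 (-1.83 to -1.54), with populations of 569, 86.0, 496 and 129 against 1904, 1234 and 1174 CPM. G2/M-negative members with Ngp, Camp and Ltf gave -1.22 (-1.39 to -1.04). The difference was not particular to members, since in other neutrophils Slpi was at 2266 CPM in the B6.SLE123 library and 7272 CPM in the control library. Other granule genes went both ways by less than 2-fold. In 6 of them, Chil3, Pglyrp1, Lrg1, Mmp8, Mmp9 and Wfdc21, the populations did not overlap, and in 5 they did. Over all genes tested the populations did not overlap in 11.2%. Wfdc21 was lower at -0.67 (-0.73 to -0.61), and Pglyrp1, a peptidoglycan recognition protein, higher at 0.54 (0.49 to 0.59). Lrg1 had a ratio of 0.52 (0.35 to 0.68). The median of the 12 genes was 0.18, against 0.16 over all genes tested.

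Interferon response genes were higher in B6.SLE123 members, 6 of 9 past 2-fold with a median log2 ratio of 1.23, and 5 of 9 with TMM scaling. Of all genes tested 5.73% were 2-fold higher. The summed list was higher in the B6.SLE123 than the control library outside the members too. It was at 4946 against 2709 CPM in members, 18452 against 10977 CPM in other neutrophils and 6209 against 1085 CPM in B cells. Ifi27l2a was at 594 CPM in the B6.SLE123 library and 132 CPM in the control library, a ratio of 2.18 (1.85 to 2.52). Isg15 was at 161 against 56.2 CPM, a ratio of 1.52 (1.005 to 2.07), and Oasl2, an oligoadenylate synthetase-like protein, at 70.7 against 20.9 CPM, a ratio of 1.76 (0.93 to 2.71). The regulator Irf7 was at 58.0 against 19.3 CPM, a ratio of 1.59 (0.72 to 2.59). The membrane protein Ifitm1 was at 302 against 128 CPM, a ratio of 1.23 (0.89 to 1.59), and its 4 B6.SLE123 populations, 419, 242, 275 and 210.3 CPM, lay above those of the control, 169.6, 120.3 and 148 CPM. In other neutrophils Ifitm1 was at 6252 CPM in the B6.SLE123 library and 2357 CPM in the control library. The other 4 genes named here were highest in 1 hashtag population. Ifi27l2a was at 79.4, 172, 869 and 64.7 CPM in C0301, C0302, C0303 and C0305 of the B6.SLE123 library, against 56.5, 48.1 and 245 CPM in C0301, C0302 and C0305 of the control library. Control population C0305 thus lay above 3 of the 4 B6.SLE123 populations. Isg15 was at 52.9, 50.9, 228 and 32.4 CPM, Oasl2 at 8.82, 22.3, 103 and 0 CPM and Irf7 at 13.2, 31.8, 80.5 and 0 CPM in the same B6.SLE123 populations. Without C0303, 1 of 6 genes tested was past 2-fold, the median was 0.09, and Isg15 and Oasl2 were at -0.18 (-0.92 to 0.56) and -0.24 (-1.54 to 1.03). Within G2/M-negative members that held Ngp, Camp and Ltf, 227 in this library, the ratio of Ifi27l2a was 2.83 (2.42 to 3.27) and that of Isg15 1.69 (1.10 to 2.33).

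Cell cycle genes were higher in B6.SLE123 members, 25.3% of which were G2/M-positive against 11.8% in the control library. Of the G2 and M list 6 of 10 were past 2-fold with a median of 1.08, and of the S phase list 4 of 6 with a median of 1.21. Of all genes tested 5.73% were 2-fold higher. The hashtag populations overlapped in all 10 G2 and M genes. They did not overlap in 5 of the 6 S phase genes and in 11.2% of all genes tested. Ube2c, a ubiquitin-conjugating enzyme of mitosis, was at 365 against 122 CPM, a ratio of 1.58 (1.24 to 1.95), and the survivin gene Birc5 at 165 against 67.4 CPM, a ratio of 1.29 (0.82 to 1.80). The S phase genes Pcna and Dut had ratios of 1.55 (0.60 to 2.67) and 1.72 (0.66 to 2.99). With TMM scaling 2 of 10 and 3 of 6 were past 2-fold. Without C0303 it was 2 of 10 with a median of 0.70 for G2 and M and 3 of 3 tested for S phase.

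Of the late neutrophil genes 1 of 13 was past 2-fold, and it was lower in B6.SLE123 members. Lcn2-led members were 15.1% of control and 5.49% of B6.SLE123 members. Whether this share accounts for the ratios of the list was not tested. Il1b was at 29.0 CPM in the B6.SLE123 library and 175 CPM in the control library, a ratio of -2.59 (-3.11 to -2.09), with populations of 17.6, 25.5, 34.9 and 0 against 188, 58.4 and 279 CPM. With Lcn2 left out of the granule sum its ratio was 2.36 (0.37 to 5.48). Srgn went from -0.57 (-0.81 to -0.34) to 0.71 (0.35 to 1.07) and Ccl6 from -0.39 (-0.65 to -0.12) to 1.25 (0.76 to 1.77) among G2/M-negative members with Ngp, Camp and Ltf. The list's median was -0.16 over all members and 0.44 in the latter, and without C0303 it was -0.42 with 3 of 13 genes past 2-fold lower. Haemoglobin Hbb-bs and Hbb-bt had no UMI in control members and were at least 21.7- and 10.9-fold higher, with 89.0% and 97.7% of their UMIs in 1 B6.SLE123 cell, and C1qb was at least 7.65-fold higher with 73.8% in 1 cell. The MHC class II ratios, -2.74 (-3.17 to -2.33) for H2-Eb1 and -2.28 (-2.65 to -1.92) for H2-Aa, stand against the control values given for the Ang II contrast, most of them from 1 cell a gene.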

How the data were processed

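Splenocytes of 3 libraries were profiled by the authors with the 10x Genomics 5′ chemistry. The deposited values are raw UMI counts per gene and hashtag, which the authors made with Cell Ranger (version 6.0.0 in the file headers) on mm10 (submitters' processing notes) and did not normalize. Doublets within a hashtag were not removed beyond the limits on genes and hashtags. The members and gene lists were chosen with earlier results of these data known. Counts were summed per library or hashtag population and scaled to CPM. With 1 library a group no test was run. Shares carry exact Clopper-Pearson, levels exact Poisson and log2 ratios exact conditional 95% intervals, and ratios against 0 used a floor of 3 counts per class. A gene was called at 2-fold with an interval off 0 and 50 or more UMIs. B cells as a reference had 3 or more UMIs of Cd79a.

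Genes named are those of the gene lists and, for each contrast, the 10 highest and 10 lowest by the bound nearest 0, leaving out immunoglobulin, T cell receptor, Xist, Y-linked, mitochondrial and rule genes. For members against other neutrophils the ratio nearest 0 over the libraries was used. Genes that distinguish G2/M-positive members were chosen after their values were seen. Of 32285 genes 32235 matched GENCODE vM21 positions. Promoters are from RefSeq, and those of Cebpe and Wfdc21 were not used here. The calculation of the intervals was checked on simulated Poisson counts, which hold no variation between cells or mice. Python 3.11.15, numpy 2.4.6, scipy 1.17.1, pandas 2.3.3, matplotlib 3.10.9, R 4.3.3 and edgeR 4.0.16 (for TMM factors alone) were used. Alternatives were other limits, hashtag rules, scalings and UMI minimums, thinning and leaving out hashtag populations. Leaving Lcn2 out of the sum, a sum of 100 and leaving out G2/M-positive cells were added after seeing the data. Some genes that the rule would name are not reported here.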

Additional observations from a re-analysis of the deposited data

How the results depend on the processing

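No paired analysis was possible because each group was 1 library and hashtag numbers were not tied to mice or conditions. All shares kept their direction. Leaving out 1 hashtag population at a time gave log2 ratios of 0.80 to 1.95 (kept cells) and 0.99 to 1.58 (neutrophils) for Ang II, and of 0.24 to 1.89 and 0.77 to 1.74 for B6.SLE123. A granule sum of 5 or more gave 0.94 and 0.89 for B6.SLE123. Limits read as UMIs gave 0.95 for Ang II in kept cells and 1.77 for B6.SLE123 in neutrophils. Thinning to 1000 UMIs gave 0.53 for Ang II in neutrophils. With populations left out, genes past 2-fold numbered 74 to 172 for Ang II (122 with all members) and 88 to 304 for B6.SLE123 (223). The number of genes tested, 3915 and 3473 in the main setting, changed with most settings. A minimum of 20 UMIs gave 226 of 6198 and 413 of 5821 genes tested, and 200 UMIs gave 8 of 1213 and 34 of 975. Limits read as UMIs gave 78 of 477 and 67 of 657, of which 2 and 15 were also called in the main setting. Populations weighted equally gave 301 and 371 (2-fold alone). Without G2/M-positive cells it was 99 of 2222 for B6.SLE123. Against other neutrophils, CPM without the rule's genes gave 563 genes (269 higher and 294 lower), against 764.

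Among single genes, limits read as UMIs turned Cd74 (0.54), H2-Aa (0.88), H2-Ab1 (1.05) and H2-Eb1 (0.47) for Ang II, and Ccl5 (-0.044), H2-Aa (0.69), H2-Ab1 (0.18) and H2-Eb1 (1.28) for B6.SLE123. Il1b in B6.SLE123 turned to 2.36 without Lcn2 in the sum and to 2.15 with a sum of 100 or more, both from few control UMIs. Without G2/M-positive cells Dut (-2.31) and Pcna (-0.31) turned for Ang II, and Cenpf (-1.60) and Dut (-0.28) for B6.SLE123. Without C0303 of B6.SLE123, Ccl5, Isg15 and Oasl2 turned, and over all populations left out they were at -0.42 to 3.48, -0.18 to 1.98 and -0.24 to 4.80. The causes were not tested, apart from the single cells and populations named above.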

Other observations

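Barcodes near the limits on other transcripts were counted too. With 10 or more UMIs of S100a8 plus S100a9 and of the 4 granule genes, 149, 341 and 424 barcodes passed the gene, mitochondrial and hashtag limits. Of these 26, 62 and 75 carried a UMI of Cd79a, of which 12, 23 and 26 had exactly 1. A sum of 5 or more of Mpo, Elane, Prtn3 and Ctsg, the azurophil granule genes of promyelocytes, was found in 4, 7 and 21. A further 6, 25 and 41 barcodes met the rule but for the hashtag limit.

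Granule transcripts were also counted in B cells, where Ngp was at 95.7, 309.7 and 276 CPM, Camp at 103, 235 and 268 CPM and S100a8 at 501, 928 and 762 CPM. A UMI of Ngp was found in 0.621, 9.69 and 4.27% of B cells and in 1.16, 13.7 and 4.39% of other neutrophils. The median depth was 1074.5, 1613 and 826.5 UMIs in other neutrophils and 1850, 2848 and 2124 in B cells.

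Of the rule's own genes, Camp and Ngp moved apart between the Ang II and control members. Camp had a log2 ratio of -0.31 (-0.33 to -0.29), with populations of 41094, 42472, 42919, 47015 and 41878 CPM against 53628, 55954 and 50494 CPM in the control library. Ngp had a ratio of 0.24 (0.22 to 0.25), with 50829, 55005, 56728, 58662 and 50467 CPM against 40565, 47538 and 47477 CPM. Neither gene's populations overlapped. Both genes were used to choose the members, so the values are descriptions.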
